A study of Drosophila melanogaster with 18 samples.

Results

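These are 172 genes of the fly head with a pair of 3′ ends less than 2 kb apart. They were found among 376 genes in which exactly 2 distinct rows of the table passed a minimum of signal and ended at different positions. A row is 1 annotated transcript end, and rows of a gene with the same values, or with values less than 10% apart, were merged. Each end had to reach a signal of 10 in at least 6 of 18 libraries, and the ends had to lie at least 1 nt and less than 2 kb apart. Of 174 such genes, 2 were left out because the rule names them. The other 202 genes had ends 2 kb or farther apart. The members were thus chosen by measured values, namely the signal of each end and the difference between the rows. No comparison of temperatures entered these limits. Why the rule names the genes it leaves out is not given, so that step cannot be called free of temperature. The readout throughout is the distal share, the signal of the distal end as a percentage of the signal of both ends. A signal is the number of reads of a row divided by 1 constant per library, as the authors deposited it, and 1 read was worth 0.515 to 2.45 of it.

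Many fly genes make transcripts that stop at more than 1 place, and the choice between a proximal and a distal 3′ end is made when the nascent RNA is cleaved and given its poly(A) tail. Where both ends lie in the last exon, the protein stays the same and the length of the 3′ untranslated region differs. Where the proximal end lies in an intron of the longer transcript, the last exons differ and the protein can end differently as well. Neurons of the fly are known for long 3′ untranslated regions, and RNA-binding proteins such as ELAV and FNE favour distal ends there.

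Whole heads of the wild-type strain Canton-S were used, from flies kept and entrained to light and dark for at least 3 days at 1 of 3 temperatures, namely 18, 25 or 29°C. Reads from the 3′ ends of polyadenylated RNA were obtained at ZT3, ZT7, ZT11, ZT15, ZT19 and ZT23 (hours after lights on), 1 library per temperature and time. Age, sex and the number of flies per library are not given in the sources used here, and nothing tells whether the times of a temperature came from separate cultures. The 6 times of a temperature served as its replicates, so p-values measure the spread between these libraries. All 3 groups carry the same genotype and differ in temperature alone, as far as the labels say. The libraries held by this step an estimated 1.24 to 6.58 M reads, the smallest being 25°C at ZT15. The estimate sums the merged rows, so a read counted in more than 1 row would enter it more than once. Markers of photoreceptors, neurons, glia, fat body and muscle were detected, and of 5 gut and ovary genes that heads should lack, 4 had a median signal of 0. Single libraries held more, with a highest sum over the 5 genes of 7.35 at 18°C, 49.5 at 25°C and 151 at 29°C.

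Over all 18 libraries the distal end carried a median of 53.1% of a member's signal, with quartiles of 39.2% and 65.3%. In the pairs 2 kb or farther apart the median was 57.2%. A use of both ends was the usual case: the mean distal share lay between 20% and 80% in 142 of the 172 members, above 90% in 4 and below 10% in 3. In 46 members the distal end was the higher one in every library and in 35 the proximal end was. The distal share of a member varied over the libraries with a median SD of 6.99 percentage points. The ends were a median of 1268 nt apart, and 76 of the pairs lay 1500 nt or farther apart. The members are spread over the genome, with 40 on 3R, 35 each on 2R and 3L, 33 on X and 24 on 2L.

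Transcripts of the same span and the same distance between ends were found in the Ensembl annotation of a later build for 166 members. In 92 of them the proximal end lies within the last exon of the distal transcript, the arrangement called tandem. For 69 of these both transcripts have the same stop codon in every match. In 63 members the proximal end lies in an intron of the distal transcript, and in 54 of these the stop codons differ. Another 4 have the proximal end in an internal exon, and 7 gave several answers. The tandem pairs had a median distal share of 55.9%, and those with the proximal end in an intron one of 45.8%.

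The members fall into many groups by what their genes do. Signalling and transcription held 37 (among them *EcR*, *Dif*, *NFAT* and *Pka-R1*), and the synapse, channels and neuronal membrane 26 (among them *cac*, *nSyb*, *Syx1A* and *norpA*). There were 15 genes of mitochondria and metabolism, 11 of RNA binding and processing, 10 of vesicle traffic and the cytoskeleton, 5 of protein folding and turnover, and 3 of the ribosome and translation. A further 45 genes have only a CG or CR number in the table, and 20 were placed in no group.

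The highest signals of all members were those of *RpS7* and *noe*, whose ends lie close together. *RpS7*, a protein of the small ribosomal subunit, has the closest ends of all, 83 nt apart (26032252 and 26032169 on the minus strand of 3R). Its proximal end had 7165, 8458 and 9616 at 18°C, 8425, 9711 and 11202 at 25°C and 9701, 10698 and 13001 at 29°C in signal units (lowest, median and highest library of 6). The distal share hardly moved, from a lowest library of 34.5% to a highest of 38.1% over all 18, and the groups overlapped. *noe*, with ends 99 nt apart, was as steady, with a mean distal share of 53.5% ± 0.587 (SD, n = 18). The log2 level of both ends of *noe* was higher at 29°C than at 18°C, by 0.74 and 0.79 (limma, adjusted p = 8.0e-06 and 4.4e-06). The third steady pair is *l(2)35Di* (ND-B17 in RefSeq, a subunit of respiratory complex I), at 47.0% ± 0.658 with ends 282 nt apart. These are the 3 smallest SDs among members with a mean share of 20 to 80%. *CG6700*, with ends 128 nt apart, had a mean distal share of 57.3% ± 5.11 at a much lower signal (means of 29.0 and 37.0).

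How steady a pair is has to be read against how its rows were counted. Among neighbouring ends of a gene in the deposited table, 94.2% of those less than 500 nt apart carry values that are identical or less than 10% different. The percentage is 85.5% from 500 nt, 82.1% from 1000 nt, 37.4% from 1500 nt and 11.6% from 2 to under 5 kb. Rows with close ends thus mostly carry nearly the same values, and the members are pairs whose rows differ by more. The variation of the distal share over the 18 libraries was divided by that expected if the reads of both ends were counted separately. This dispersion index was below 1 in 32 of 172 members (18.6%) and in 6 of the 202 pairs farther apart (2.97%). It was lowest in *ena*, an actin regulator outside the rule for named genes, at 0.138, and 0.322 in *l(2)35Di*. In 28 members the signals of both ends followed each other across the libraries with a Pearson r above 0.9, a description over 18 libraries that share depth and cell makeup. A read counted in both rows draws the ratio of the ends toward 1, so a change in the shared reads can change the ratio as well, and how many reads the rows share was not tested.

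**Figure D1:**
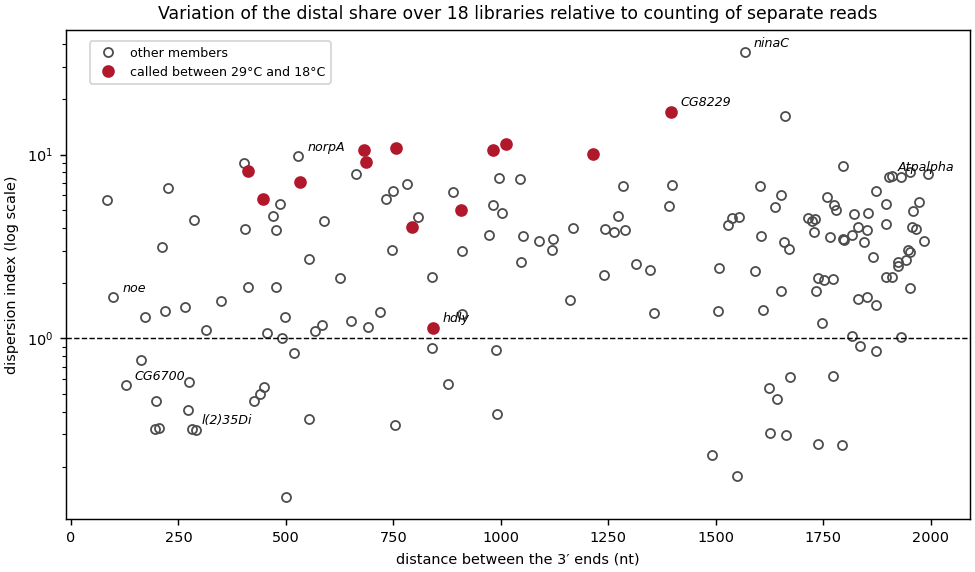
Dispersion index of the distal share (vertical, log scale) against the distance between the ends in nt (horizontal) for the 172 members, where filled points are the 13 pairs that differed between 29°C and 18°C and the dashed line marks an index of 1. A total of 32 members lie below the line, 12 of them among the 34 pairs less than 500 nt apart, and all 13 filled points lie above it.

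The question put to each pair was whether its ends were used in another proportion at another temperature. It was tested on log2 of the ratio of distal to proximal signal, with 1 added to each, in 1 limma fit over all 376 pairs, with p-values adjusted over all of them. Between 29°C and 18°C, 13 of the 172 members changed at an adjusted p under 0.05, against 34 of all 376 pairs (9.04%). The share of members called, 7.56%, is thus no higher than that of all 376 pairs, which include the 2 close pairs left out by name. In 10 of the 13 the distal share fell at 29°C, and in 3 it rose. Over all 376 pairs there were 16 falls (4.26%) and 18 rises (4.79%), and among the pairs 2 kb or farther apart 6 falls and 13 rises. Genes named by the rule were left out of the members alone, so these counts by direction are not fully alike. Whether direction differs between close and distant pairs was not tested. The median log2 ratio change of the members was 0.03, beside 0.05 over all pairs, with 82 members below 0 and 90 above.

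**Figure D2:**
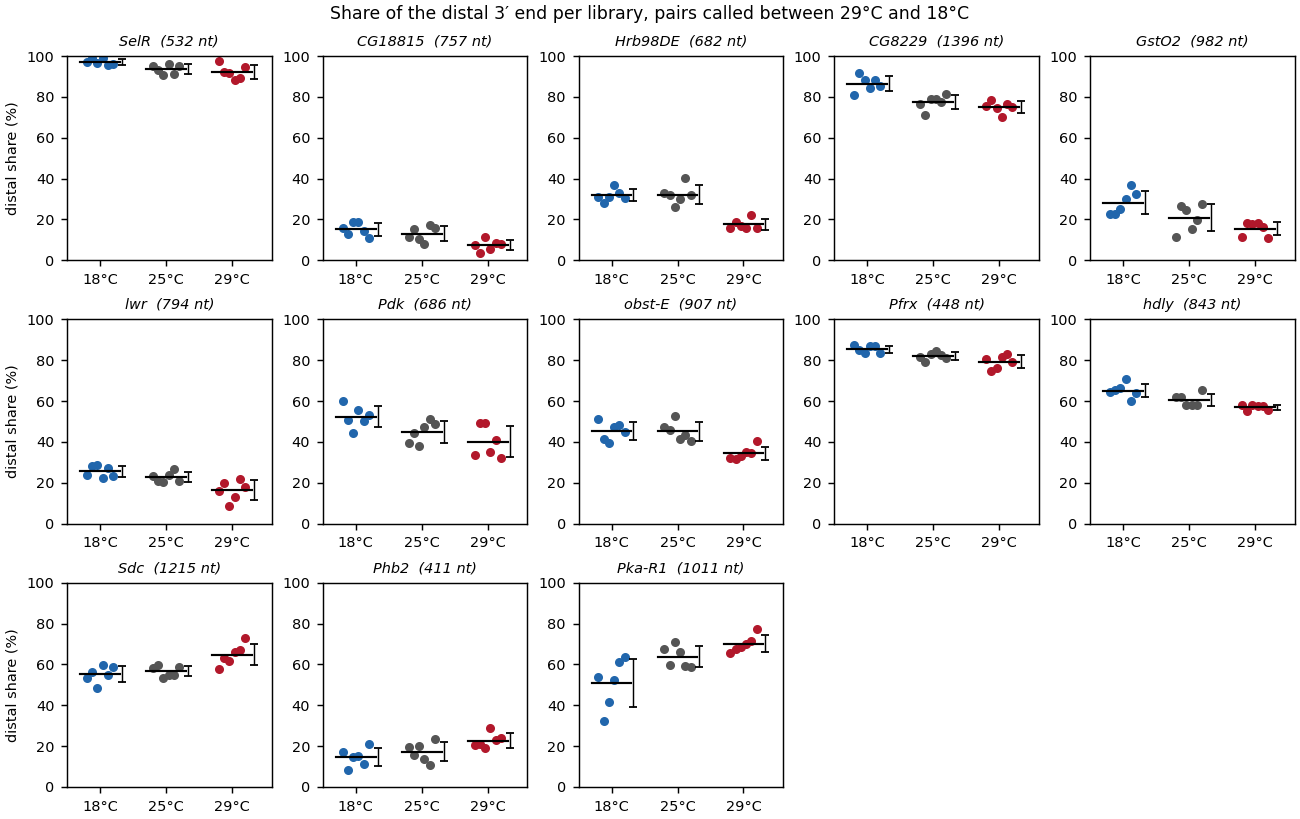
Distal share in percent (vertical) by temperature in °C, low to high (horizontal), for the 13 members that changed between 29°C and 18°C, 1 panel per gene with the distance of its ends, where each point is a library in order of time within a temperature, the line is the mean and the bar the SD (n = 6). In 10 panels the mean of 29°C lies below that of 18°C and in the last 3, *Sdc*, *Phb2* and *Pka-R1*, above it.

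In RNA from whole heads, a switch of ends within a cell type and a change in the mix of cell types that prefer different ends cannot be told apart. The marker genes did move with temperature. All 5 fat body markers (*Lsp2*, *fit*, *Yp2*, *Yp3* and *Yp1*) were lower at 29°C than at 18°C. Their summed signals were 102704 to 206144 at 29°C and 313897 to 761208 at 18°C (range over 6 libraries). The *Yp* genes, which encode yolk proteins, made up most of this fat body sum. Sex is not given, and whether the sex ratio of the flies has a part in this fall was not tested. Of 5 photoreceptor markers 3 were higher at 29°C (*ninaE*, *trp* and *norpA*), with sums over all 5 of 42876 to 59680 at 29°C and 22556 to 28713 at 18°C. *ninaE* made up most of this sum. The proximal end of *ninaC* and *inaD* had log2 changes of -0.22 and 0.07 and did not pass (limma, adjusted p = 0.0796 and 0.73). Of 4 muscle markers 3 were lower (sums of 4707 to 5809 at 29°C and 7759 to 10668 at 18°C) and of 4 glial markers 2 were lower (sums of 2674 to 3213 at 29°C and 3756 to 4638 at 18°C; 1 lower when scaled by library size). None of the 5 neuronal markers passed (sums of 502 to 650.3 at 29°C and 427 to 592 at 18°C; 1 higher when scaled by library size). The part of these shifts in the changes of the 13 pairs was not tested. Fewer cells of a type and less RNA per cell likewise cannot be told apart.

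The firmest of these changes was in an RNA-binding protein. *Hrb98DE* encodes an hnRNP A/B protein, a family that binds nascent RNA and takes part in splicing. Its ends lie at 24430817 and 24431499 on the plus strand of 3R, 682 nt apart, the proximal one in an intron of the distal transcript, and both transcripts have the same stop codon. The proximal row also holds transcripts with another 3′ position, 2 positions in all, so it does not stand for a single end. The distal share was 15.6, 16.5 and 22.3% at 29°C (lowest, median and highest library), against 28.0, 31.0 and 36.9% at 18°C. At 25°C it was 25.9, 31.8 and 40.2%. The 29°C libraries all lie below those of both other temperatures. The log2 ratio fell by 1.12 between 29°C and 18°C (SE 0.16, limma, adjusted p = 5.7e-05). Between 29°C and 25°C it fell by 1.14 (SE 0.16, limma, adjusted p = 2.4e-04), and it is the member with the lowest p in both comparisons. It was the proximal end that moved between 29°C and 18°C. The proximal end had signals of 237, 296 and 329 at 29°C, against 154, 166 and 205 at 18°C. The distal end had 48.4, 58.8 and 84.3 at 29°C and 69.4, 76.3 and 94.1 at 18°C. The proximal end rose by 0.77 in log2 units (limma, adjusted p = 4.0e-05), while the change of the distal end, -0.35, did not pass (limma, adjusted p = 0.176). At 25°C the proximal end had signals of 151 to 255 and the distal end 70.4 to 140 (range over 6 libraries). Between 29°C and 25°C the distal end passed as lower, with a log2 change of -0.67. That call was lost when libraries were scaled by their size (limma, adjusted p = 0.068). It was also lost in the block fit and in many fits without a library. The remaining 10 members of RNA binding and processing, such as *Hrb87F*, *loqs*, *orb2* and *stau*, did not pass between 29°C and 18°C.

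Of 15 members placed in metabolism and mitochondria, 5 were called, beside 9.04% of all 376 pairs. The groups by role were assigned by hand with results known, and no test was run between them. *SelR* encodes a methionine sulfoxide reductase, which repairs oxidised methionine. Nearly all of its signal is at the distal end (3R, minus strand, 6689077, 532 nt beyond the proximal end at 6689609). The distal share was 88.2, 91.9 and 97.4% at 29°C, against 95.6, 96.9 and 99.1% at 18°C, and the groups overlap. The proximal end had signals of 12.7, 35.3 and 44.6 at 29°C and 2.86, 13.3 and 21.3 at 18°C, and it rose by 1.44 in log2 units (limma, adjusted p = 0.0105). The log2 ratio fell by 1.51 (SE 0.42, limma, adjusted p = 0.0291). This call rests on a weak end: it was lost in 5 of the 18 fits that left out a library (18°C at ZT7 and ZT15, 29°C at ZT7, ZT15 and ZT19), and on the linear scale of the share.

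*GstO2* encodes a glutathione transferase of the omega class. The distal share was 10.9, 16.9 and 18.3% at 29°C, against 22.7, 27.4 and 36.8% at 18°C, with no overlap, and the log2 ratio fell by 1.101 (SE 0.27, limma, adjusted p = 0.0115). Its ends lie at 8515511 and 8514529 on the minus strand of 3L, 982 nt apart, and the distal end reaches into *se*, a neighbour on the other strand (8513652 to 8514589) whose enzyme makes a red eye pigment precursor. The distal end of *GstO2* fell by 1.08 in log2 units (limma, adjusted p = 0.00229), and *se* fell too, by 0.94 (limma, adjusted p = 3.0e-05). Whether the counting used strand is not given in the sources used here, so reads of the 2 genes cannot be told apart at this end.

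*Pdk*, the kinase that switches off pyruvate dehydrogenase, had a distal share of 32.2, 38.1 and 49.3% at 29°C, against 44.4, 52.1 and 59.9% at 18°C. The groups overlap, and the log2 ratio fell by 0.73 (SE 0.20, limma, adjusted p = 0.0227). When the time of day entered the fit as a block, the limma adjusted p was 0.051, and 4 of 18 fits without a library (18°C at ZT3, 29°C at ZT3, ZT15 and ZT23) lost the call. Neither end passed singly, and the proximal row of *Pdk* holds 2 3′ positions. *Pfrx*, the enzyme that makes and removes fructose 2,6-bisphosphate, is a tandem pair on X with ends 448 nt apart. Its distal share was 74.7, 79.9 and 83.0% at 29°C, against 83.4, 85.9 and 87.3% at 18°C, with no overlap (log2 ratio change -0.62, SE 0.14, limma, adjusted p = 0.00682). The distal end fell by 0.41 (limma, adjusted p = 0.00498), a change in level that did not pass when libraries were scaled by their size (limma, adjusted p = 0.135). *CG14200*, annotated on the same strand across these ends, had a median signal of 60.2 and a log2 change of 0.19 (limma, adjusted p = 0.60).

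*Phb2*, a prohibitin of the inner mitochondrial membrane, went the other way. Its distal share was 19.1, 21.8 and 29.0% at 29°C, against 8.35, 15.07 and 21.1% at 18°C, higher at each of the 6 times although the ranges overlap. The log2 ratio rose by 0.82 (SE 0.24, limma, adjusted p = 0.0389). It was the proximal end that fell, by 0.67 (limma, adjusted p = 2.8e-05), with a distal change of 0.15 (limma, adjusted p = 0.695). This was the least stable of the 13 with *hdly*: 8 of 18 fits without a library lost it, namely 18°C at ZT7, ZT11, ZT15 and ZT19 and 29°C at ZT7, ZT15, ZT19 and ZT23. *CG15097* on the other strand overlaps the distal end, with a median signal of 28.2 and a log2 change of 0.49 (limma, adjusted p = 0.27).

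In signalling, 1 of 37 members changed. *Pka-R1* encodes the type I regulatory subunit of protein kinase A, which holds the kinase inactive until cAMP binds. The distal share was 65.6, 69.4 and 77.5% at 29°C, against 32.3, 53.1 and 63.6% at 18°C. At 25°C it was 58.6, 62.9 and 71.2%. All 29°C libraries lie above all 18°C libraries. The pair is tandem, with ends 1011 nt apart on 3L, and transcripts with 3 end positions are merged into its distal row. The log2 ratio rose by 1.18 (SE 0.26, limma, adjusted p = 0.00624). The proximal end had 40.2, 50.7 and 70.7 at 29°C, against 66.7, 110.2 and 156 at 18°C, a fall by 1.02 in log2 units (limma, adjusted p = 7.2e-04). The distal end, with medians of 126 at 29°C and 109 at 18°C, did not pass (log2 change 0.16, limma, adjusted p = 0.544). *Pka-R2*, the type II subunit, is a member too (named here after its values were seen) and had a log2 ratio change of 0.09 (limma, adjusted p = 0.749).

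*lwr* encodes the conjugating enzyme for SUMO and was the 1 of 5 members of protein folding and turnover to change. Its distal share was 8.53, 17.0 and 22.0% at 29°C, against 22.2, 25.5 and 28.5% at 18°C, with no overlap, and the log2 ratio fell by 0.85 (SE 0.21, limma, adjusted p = 0.0161). Both ends fell, the distal one by 1.23 and the proximal one by 0.38 in log2 units (limma, adjusted p = 1.9e-04 and 0.0262). The fall of the proximal end did not pass when libraries were scaled by their size (limma, adjusted p = 0.274). Its ends lie 794 nt apart on 2L, both transcripts have the same stop codon, and the proximal row holds 2 3′ positions.

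Of 26 members of the synapse, channels and neuronal membrane, *Sdc* alone changed between 29°C and 18°C. It encodes syndecan, a heparan sulphate proteoglycan of the cell surface. The distal share was 57.6, 64.7 and 72.9% at 29°C, against 48.7, 55.5 and 59.6% at 18°C, higher at all 6 times with ranges that overlap. The log2 ratio rose by 0.58 (SE 0.14, limma, adjusted p = 0.0101) and the distal end rose by 0.45 (limma, adjusted p = 0.00966). A transcript merged into the distal row of *Sdc* has the 3′ position of the proximal row, so its rows are not a clean division by position. *Acox57D-d* on the other strand overlaps the stretch between the ends of *Sdc*. It had a median signal of 22.6 and a log2 change of -0.92 (limma, adjusted p = 0.11). The log2 ratio change was -0.10 for *cac*, the presynaptic calcium channel, -0.26 for *nSyb*, the synaptic vesicle SNARE, and -0.39 for *norpA*, the phospholipase C of phototransduction (limma, adjusted p = 0.781, 0.77 and 0.216; chosen for their roles after their values were seen).

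Genes known by number or outside these groups gave the rest. *CG18815* (Apt1 in RefSeq, named for the thioesterases that take fatty acids off proteins) had a distal share of 3.56, 7.67 and 11.4% at 29°C, against 10.6, 15.02 and 18.6% at 18°C. It was lower at all 6 times, with ranges that overlap. The distal end had signals of 18.4, 39.6 and 65.2 at 29°C and 71.5, 104 and 129 at 18°C and fell by 1.41 in log2 units (limma, adjusted p = 1.2e-04). The proximal end, which carries most of the signal, did not pass (log2 change -0.22, limma, adjusted p = 0.108). The log2 ratio fell by 1.196 (SE 0.27, limma, adjusted p = 0.00682). *obst-E*, a chitin-binding protein of the cuticle, had a distal share of 31.4, 33.7 and 40.2% at 29°C, against 39.3, 46.0 and 51.1% at 18°C. At 25°C it was 40.5, 44.5 and 52.9%. The libraries of 29°C and 18°C overlap, although 29°C was lower at all 6 times. The log2 ratio fell by 0.66 (SE 0.14, limma, adjusted p = 0.00624), with a fall of the distal end by 0.84 (limma, adjusted p = 8.7e-05).

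*CG8229* had the largest dispersion index of the 13. Its distal share was 70.1, 75.2 and 78.6% at 29°C, against 81.2, 86.7 and 91.6% at 18°C, and these do not overlap. At 25°C it was 71.1, 78.3 and 81.5%. The log2 ratio fell by 1.11 (SE 0.18, limma, adjusted p = 3.0e-04). Both ends rose, the proximal one by 1.52 with signals of 238, 279 and 367 at 29°C against 62.9, 109.8 and 132 at 18°C (limma, adjusted p = 3.1e-08), the distal one by 0.40 (limma, adjusted p = 0.00356). The distal row is not specific to the gene, because *CG33199* (2R, minus strand, 4835186 to 4838591) starts at the same position and spans both ends. *CG33199* had a mean signal of 764 beside 761 at the distal end of *CG8229*, with a Pearson r of 0.998 over the 18 libraries, so the pair sets *CG8229* ending at 4837014 against reads that both genes share. *hdly*, which the rule for named genes leaves out as the smallest of the 13 changes, had a distal share of 55.0, 57.6 and 58.2% at 29°C, against 60.3, 65.0 and 70.7% at 18°C. Its log2 ratio fell by 0.49 (SE 0.14, limma, adjusted p = 0.0297). The groups do not overlap, but 7 of 18 fits without a library lost the call (18°C at ZT7, ZT11 and ZT15, 29°C at ZT7, ZT15, ZT19 and ZT23), as did the block, and its proximal row holds 2 3′ positions. *CG31191* on the other strand overlaps the stretch between the ends of *hdly*. It had a median signal of 36.6 and a log2 change of -0.73 (limma, adjusted p = 0.0795).

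**Figure D3:**
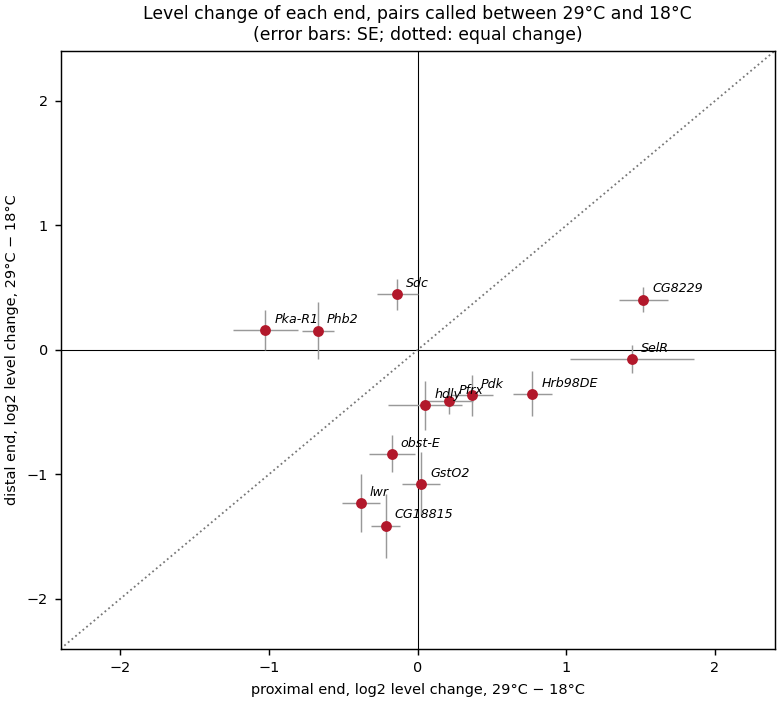
Log2 level change between 29°C and 18°C of the proximal end (horizontal) and the distal end (vertical) of the 13 members whose ratio changed, with SE as error bars; points below the dotted line of equal change lost distal share at 29°C, and the 3 above it gained. *Hrb98DE*, *SelR* and *CG8229* lie to the right, where the proximal end was higher at 29°C, and *CG18815*, *lwr*, *GstO2* and *obst-E* at the bottom, where the distal end was lower.

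Which end moved was not the same in every pair. Among the 13, the level of the proximal end alone passed in 4 (*Hrb98DE*, *Phb2*, *Pka-R1*, *SelR*), that of the distal end alone in 5 (*CG18815*, *GstO2*, *Pfrx*, *Sdc*, *obst-E*), both in *CG8229* and *lwr*, and neither in *Pdk* and *hdly*. The mean share at 25°C was intermediate in 12 of the 13, with *Hrb98DE* as the exception. Since the 13 were selected on the outer temperatures, that count is a description. The change had the same direction at all 6 times in 11 of the 13, with 1 time the other way in *Pdk* and in *SelR*. The shares of 29°C and 18°C did not overlap in 7 of the 172 members, against 17 of all 376 pairs (4.52%). The 7 are *CG8229*, *GstO2*, *Hrb98DE*, *Pfrx*, *hdly* and *lwr*, all lower at 29°C, and *Pka-R1*, higher.

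The calls can be counted by where the ends sit. Over all 376 pairs 9.04% were called, 4.26% with a lower and 4.79% with a higher distal share at 29°C. Of the 63 members whose proximal end lies in an intron of the distal transcript, 10 changed between 29°C and 18°C, 9 toward the proximal end. Of the 92 tandem members 3 changed, *Pfrx* toward the proximal end and *Pka-R1* and *Sdc* toward the distal one. The median log2 ratio change was -0.14 in the first kind and 0.05 in the second. Among pairs 2 kb or farther apart, 10 of 97 with an intronic proximal end were called, 3 of them with a lower distal share at 29°C, and 6 of 83 tandem pairs, 2 of them lower. These pairs, unlike the members, were not trimmed by name. By distance, 2 of 34 members with ends under 500 nt apart were called, 8 of 38 from 500 to under 1000 nt, 3 of 24 from 1000 to under 1500 nt and 0 of 76 beyond. In that widest bin 9 members had an unadjusted limma p under 0.05, and the lowest adjusted p was that of *MED1*, a Mediator subunit named here after its values were seen (0.0618, log2 ratio change 1.94, SE 0.63). All 8 from 500 to under 1000 nt lost distal share at 29°C. They include *GstO2*, whose distal end reaches into *se*, and *Hrb98DE* and *lwr*, whose proximal rows hold 2 3′ positions. Of all called members, 6 have another gene between the ends. More than 1 3′ position in a row was found in 6, with *Sdc* and *hdly* in both sets. The distance bins do not hold the same kinds of pair, since 48 of the 76 widest members are tandem and 20 of the 38 from 500 to under 1000 nt have an intronic proximal end. These counts over members are descriptions, and no test was run between the kinds of pair or the bins.

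**Figure D4:**
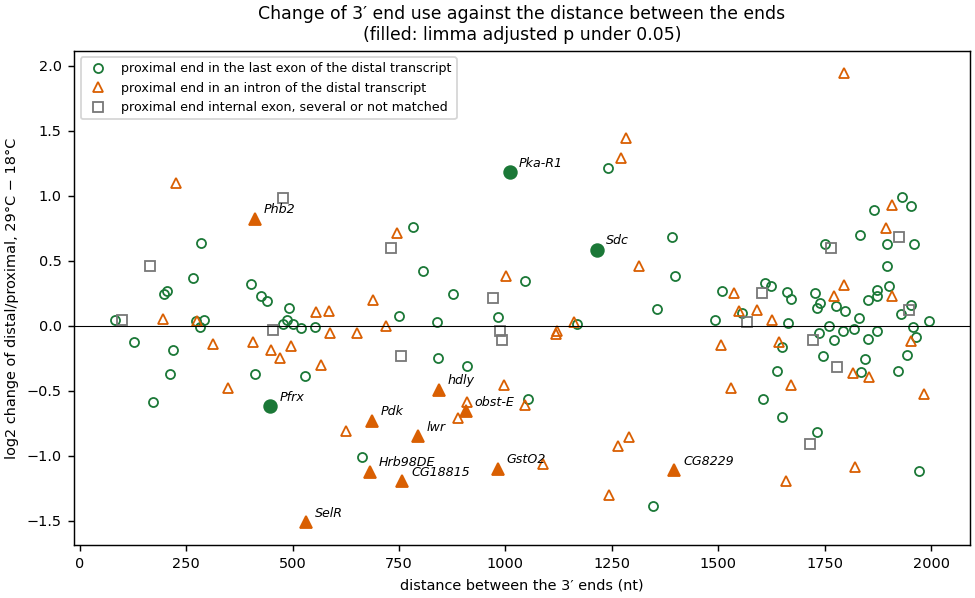
Log2 change of the ratio of distal to proximal signal between 29°C and 18°C (vertical) against the distance between the ends in nt (horizontal) for the 172 members, where circles have the proximal end in the last exon of the distal transcript, triangles in an intron, and filled symbols passed the test. The 13 filled symbols lie between 411 and 1396 nt, and none of the 76 members at 1500 nt or more is filled.

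Against 25°C fewer pairs changed. Between 18°C and 25°C, 3 members passed of 172, against 10 of all 376 pairs (2.66%). Of the 3, 1 rose and 2 fell in distal share at 18°C, beside 3 rises (0.798%) and 7 falls (1.86%) over all pairs. The shares of 18°C and 25°C did not overlap in 4 members, against 11 of all pairs (2.93%). *Ggamma1*, a gamma subunit of heterotrimeric G proteins, has tandem ends 1661 nt apart on 2R. Its distal share was 43.5, 47.9 and 50.5% at 18°C, against 51.2, 56.7 and 59.1% at 25°C, with no overlap. At 29°C it was 47.3, 51.9 and 56.2%, which overlaps 25°C. The log2 ratio fell by 0.50 at 18°C (SE 0.09, limma, adjusted p = 0.00226), and the distal end by 0.58 (limma, adjusted p = 1.6e-05). The change between 29°C and 25°C, -0.24, did not pass (limma, adjusted p = 0.328).

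*Atpalpha*, the alpha subunit of the sodium pump, had a distal share of 77.1, 80.8 and 82.0% at 18°C, against 83.9, 84.5 and 87.3% at 25°C, again with no overlap. The log2 ratio fell by 0.47 (SE 0.11, limma, adjusted p = 0.0151) and the proximal end rose by 0.69 (limma, adjusted p = 6.7e-04). Without the 25°C library of ZT15, the smallest and the one with the highest share, the limma adjusted p was 0.05001 and the call was lost. As in *Sdc*, the distal row of *Atpalpha* includes a transcript with the proximal 3′ position. *CG8229* is the third, with a log2 ratio 0.92 higher at 18°C (SE 0.18, limma, adjusted p = 0.00555).

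Between 29°C and 25°C, 2 members passed, and they are the only ones among all 376 pairs (0.532%). They are *Hrb98DE* and *obst-E*, whose 29°C libraries lie below those of 25°C without overlap. For *obst-E* the log2 ratio fell by 0.65 (SE 0.14, limma, adjusted p = 0.0402). That call was lost in 12 of 18 fits without a library, including 3 that left out a library of 18°C, since all groups share 1 estimate of the spread. It was kept without 18°C at ZT3, ZT7 and ZT11, without 25°C at ZT15 and ZT23, and without 29°C at ZT23. *Hrb98DE* kept its call in all 18 of these fits.

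No member passed the test for a 24 h rhythm in the use of its ends. A rhythm common to the 3 temperatures passed in 0 of 172 members and 0 of 376 pairs in limma, with a lowest adjusted p of 0.73. At an unadjusted p under 0.05 there were 8 members, and 22 of all pairs (5.85%). Rhythms within a single temperature were not tested.

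The members at the edges of the range show what the ends look like when 1 of them dominates. The highest mean distal share was that of *Zasp66*, a protein of the muscle Z-disc, at 97.1% ± 1.93 (SD, n = 18). It was followed by *SelR*, described above, at 94.3% ± 3.22, and *CG30116* at 92.4% ± 6.39. The level of the distal end of *Zasp66* fell by 0.93 between 29°C and 18°C in log2 units (limma, adjusted p = 2.2e-06), while its share stayed between 91.9% and 99.7% over all libraries. At the low end were *skap* (ScsbetaA in RefSeq, a subunit of succinyl-CoA synthetase of the citric acid cycle) with 4.52% ± 1.25, *sd*, the TEAD transcription factor Scalloped, with 8.22% ± 4.89, and *CG32676* with 9.91% ± 5.52. For *sd* and *CG32676* the distal end averaged 12.4 and 8.74, where 1 read was worth 0.515 to 2.45. Of these 6 genes *SelR* alone passed in a comparison of temperatures.

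The photoreceptor gene *ninaC*, which encodes a myosin of class III, had the third strongest signal of the members and by far the largest dispersion index, 35.9. Its distal share was 19.7, 22.5 and 31.8% at 18°C, 16.5, 19.7 and 31.1% at 25°C and 18.6, 24.9 and 26.6% at 29°C, and the temperatures overlap. The log2 ratio change between 29°C and 18°C was 0.03 (SE 0.17, limma, adjusted p = 0.941). Its proximal end lies in an internal exon of the distal transcript, with another stop codon, and a transcript merged into the proximal row has the distal 3′ position.

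The widest pairs were *east* (1995 nt), *Eps-15* (1984 nt), an adaptor of endocytosis, and *Eip63E* (1972 nt), a cyclin-dependent kinase. Just outside the limit lay *Mef2* (2006 nt) and *dp* (2009 nt). Mean distal shares were 60.4% ± 11.6 in *east*, 35.6% ± 7.36 in *Eps-15* and 50.1% ± 17.9 in *Eip63E*. None of the 3 passed in any comparison of temperatures. *Eip63E* had a log2 ratio change of -1.12 between 29°C and 18°C, as large as that of *Hrb98DE*, but an SE of 0.54 (limma, adjusted p = 0.227). In all, 18 members had a log2 ratio change beyond 1 in either direction, and 6 of them passed. On the signal minimum, 4 members had an end that reached 10 in exactly 6 libraries and 3 pairs stayed outside with 5. All 172 passed it, 91 with both ends in every library. In *Nhe2* an end stayed below 10 in every library of a temperature, and no other member had that. *Nhe2* did not pass.

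Seen end by end, 64 of the 344 rows of the members (18.6%) differed in level between 29°C and 18°C, against 2016 of all 8754 rows tested (23%). Of the proximal ends 15 were higher and 16 lower at 29°C, and of the distal ends 14 were higher and 19 lower. This balance depends on the scaling: with libraries scaled by their size, which moves the median log2 change of all rows to 0.24 from 0.05, 48 ends of members were higher and 21 lower at 29°C. Between 18°C and 25°C there were 24 rows of members (6.98%, beside 10.7% of all rows). Of these 10 were higher at 18°C and 14 lower, beside 6.59% and 4.14% of all rows. With libraries scaled by their size 3 were higher at 18°C and 36 lower. Between 29°C and 25°C there were 7 (2.03%, beside 1.96%), of which 1 was higher at 29°C and 6 lower, beside 0.8% and 1.17% of all rows. Of all 8754 rows, 10.5% were higher and 12.5% lower at 29°C than at 18°C. Of the 13 pairs with a ratio change between 29°C and 18°C, 11 had an end among the 64 rows. Both ends of *RpS7*, for example, were higher at 29°C than at 18°C, by 0.42 and 0.46 in log2 units (limma, adjusted p = 0.00136 and 6.3e-04), at a ratio change of 0.04.

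The genes that cleave and polyadenylate RNA, or bind near 3′ ends, were measured in the same libraries. Of 22 such genes listed, 21 had a tested row, and of these 4 were higher at 29°C than at 18°C and 0 lower, beside 10.5% and 12.5% of all rows. Both other scalings gave the same counts. A gene with several rows, such as *fne* with 4 tested rows and *Rbp9* with 2, stands here by its row of the highest signal. The 4 higher ones are *pAbp*, the cytoplasmic poly(A)-binding protein (log2 change 0.85, limma, adjusted p = 2.5e-09), *hrg*, the poly(A) polymerase (1.12, adjusted p = 0.0025 in limma), and the neuronal RNA-binding proteins *Rbp9* (0.64, adjusted p = 0.00010 in limma) and *fne* (0.65, adjusted p = 0.0189 in limma). The cleavage factors proper, such as *Cpsf160*, *Cpsf73*, *CstF-64* and *su(f)*, had log2 changes of 0.50, -0.06, -0.57 and 0.36 that did not pass. Their median signals were low, between 19.2 and 47.4. The median log2 change of the 21 genes was 0.24. Whether these levels bear on the 3′ ends was not tested.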

How the data were processed

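RNA from heads of Canton-S flies at 3 temperatures and 6 times was sequenced from its 3′ ends, giving 18 libraries. The authors deposited 1 signal per annotated transcript end and library, a read number divided by 1 constant per library, so that 98.1 to 98.6% of the values were whole multiples of the worth of 1 read (tolerance 0.01 reads). The submitters' processing notes name Bowtie2, TopHat, Cufflinks and the build dm3 without their roles, and the counting rule, its use of strand and the constants are not given in the sources used here. Of 29561 rows, 28056 had values and a position. Rows of a gene that were identical or less than 10% different were merged (16033 rows), and 8754 rows in 8109 genes reached a signal of 10 in 6 or more libraries. Exactly 2 rows passed in 401 genes, of which 25 had both rows at the same 3′ position. In 59 of the 172 members a merged row holds more than 1 3′ position, and in 7 the rows share one. Coordinates are those of the files (dm3, counted from 1). Positions in a transcript and stop codons were taken from BDGP6.54 models with the same span and the same distance between ends.

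The log2 ratio of the ends (1 added to each signal) and the level of each row were fitted in limma 3.58.1 (R 4.3.3) over all 18 libraries with temperature as the factor and a trend on the mean, and p-values were adjusted by Benjamini and Hochberg over all 376 pairs or all 8754 rows. The rhythm was tested with a 24 h cosine and sine common to the temperatures. The titles of some samples give ZT18 where the descriptions give ZT19, and ZT19 was used. Read numbers estimated from the worth of 1 read entered only the dispersion index. Named are the 12 largest changes called between 29°C and 18°C, up to 3 calls by p in each other comparison, the 3 members at each extreme of distance and of share, the 3 of the highest signal, and the 3 of the smallest SD at a share of 20 to 80%. Members, gene lists and tests were chosen with earlier results of these data known. The fits were tested on simulated data in which each read of a pair belonged to 1 end alone. Reads shared by both rows were not simulated. The genes named by the rule as left out are not reported here.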

Additional observations from a re-analysis of the deposited data

Results flagged for a closer look

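Among 84 groups of 6 libraries (28 named pairs at 3 temperatures), 5 held a library whose distal share stood apart from the other 5 by more than Dixon's 95% critical value for 6, where chance alone gives about 1 in 20 groups. In *Atpalpha* at 25°C the library of ZT15 was the highest, at 87.3% against 83.9 to 84.8% in the others (gap over range 0.748), and the call between 18°C and 25°C was lost without it. In *Eps-15* at 25°C the same library was the lowest, at 24.1% against 33.6 to 35.9% (0.801). It is the smallest library, with an estimated 1.24 M reads. In *ninaC* at 18°C the library of ZT11 was the highest, at 31.8% against 19.7 to 23% (0.728). In *CG30116* at 18°C the library of ZT7 was the lowest, at 71.9% against 92.7 to 98.4% (0.784), and in *Zasp66* at 25°C that of ZT19, at 91.9% against 97.3 to 98.7% (0.79).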

How the results depend on the processing

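No called change turned its direction under any alternative run. Between 29°C and 18°C the 13 calls among members became 3 of 785 pairs when only identical rows were merged and 22 of 270 with neighbouring ends of genes with more rows. Chosen after seeing the data, leaving out pairs with another gene between the ends left 7 of 134, and leaving out pairs with more than 1 3′ position in a row left 7 of 113. Between 18°C and 25°C the 3 calls became 1 without the trend and 6 with neighbouring ends. Between 29°C and 25°C the 2 calls became 0 with only identical rows merged, where *Hrb98DE* was not a member. They became 1 without the signal minimum, without the trend, with diffSplice, and without pairs of several 3′ positions. The number of members was 785, 270 and 98 with only identical rows merged, with neighbouring ends and with the minimum in every library. Rows of members called for their level between 18°C and 25°C were 39 instead of 24 when scaled by library size (3 higher and 36 lower at 18°C, beside 10 higher and 14 lower).

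Leaving out each library in turn gave 9 to 16 calls between 29°C and 18°C (9 to 15 for each time point), 2 to 4 (1 to 5) between 18°C and 25°C, 1 to 2 (1 to 2) between 29°C and 25°C, and 0 for the rhythm. Level calls ranged from 55 to 66, 17 to 26 and 3 to 9. With the time point as a replicate block the counts were 12, 3 and 1, with 1 call gained and a loss of *Pdk* (limma, adjusted p = 0.051) and *hdly* (0.0648) between 29°C and 18°C and *obst-E* (0.0928) between 29°C and 25°C. In the ratio of the ends, libraries of the same time point did not deviate together (correlations of -0.077 to 0.082 over 18 pairs, with 0 of 18 libraries closest to its own time point). Whether they share more than a time of day cannot be read from this, because most pairs showed no change. Of 582 alternatives for single ratio changes, 498 kept direction and call and 84 lost the call. With only identical rows merged *GstO2* and *Sdc* lost their calls between 29°C and 18°C, and *CG8229* and *obst-E* kept theirs. The other pairs called between 29°C and 18°C, *Hrb98DE* among them, were not members under that merge, so it does not test them. With diffSplice *Sdc*, *hdly* and *Atpalpha* lost their calls, and without the trend *Phb2*, *Ggamma1* and *Atpalpha*. Leaving out a time point lost *GstO2* and *Sdc* (ZT19), *lwr* (ZT11) and *CG8229* between 18°C and 25°C (ZT19), beside *Pdk*, *Phb2*, *SelR*, *hdly*, *Atpalpha* and *obst-E* (29°C against 25°C), each at 3 to 5 of the 6 times. Where the cause of a change is not given by how the alternative was built, it was not tested. Depth limits the weak ends: 1 read is worth up to 2.45, and a share that rests on an end near 10 rests on few reads.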
